A study of Mus musculus with 16 samples.

Results

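This section follows 9 transcription factors of the circadian clock's repressor loops and output arms through kidneys of mice given FAN or vehicle: Nr1d1, Nr1d2, Rora, Dbp, Tef, Hlf, Nfil3, Bhlhe40 and Bhlhe41. The members were chosen by gene symbol from what is known of their function, with earlier results of these data known. All 9 were among the 17731 genes that passed the filter on low counts, of 52338 genes in the count table. The study sequenced kidney RNA, once, on day 15 after treatment, from C57BL6 mice that all ate a high-fat diet. There were 4 libraries in each of 4 groups: FAN with time-restricted feeding, FAN with ad libitum feeding, vehicle with time-restricted feeding and vehicle with ad libitum feeding. FAN is left unexplained by the labels, although its columns are named with the word folic. Age, sex, dose, the hours of feeding and the hour of collection are not given in the sources used here, so that with a single day of collection a changed level and a shifted daily phase cannot be told apart.

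The mammalian clock is a transcriptional loop in which CLOCK and BMAL1, the product of Arntl, bind E-box sequences and switch on their own repressors. NR1D1 and NR1D2, the REV-ERB receptors, repress Arntl through elements that RORA and its relatives use to activate it. BHLHE40 and BHLHE41, also called DEC1 and DEC2, bind E-boxes and oppose CLOCK and BMAL1. DBP, TEF and HLF are the PAR bZIP factors, which carry the rhythm to output genes by activating D-box elements, and NFIL3, also called E4BP4, represses through the same elements. In mouse kidney and liver the PAR bZIP factors are known for driving genes of detoxification and drug transport.

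The stretches just upstream of the members' starts were searched on both strands for an E-box (CACGTG), its variant with the letters CACGTT, the ROR element core TNGGTCA and a D-box written as TTANGTAA. RefSeq (GRCm38.p6) gave promoter windows of 250 bases before to 50 after the start for 8 of the 9 members, 9 windows in all because Tef has a pair of them. Windows of 4 members held a match, and the bases before the start in those windows are shown because they hold the letters that the clock's own factors are known to bind. Capitals mark the matches. The Nr1d1 stretch lies at chr11:98775378-98775627 on the minus strand, those of Tef at chr15:81802423-81802672 and chr15:81811164-81811413 on the plus strand, that of Bhlhe41 at chr6:145865421-145865670 on the minus strand and that of Nfil3 at chr13:52981040-52981289 on the minus strand, all on GRCm38.
Nr1d1: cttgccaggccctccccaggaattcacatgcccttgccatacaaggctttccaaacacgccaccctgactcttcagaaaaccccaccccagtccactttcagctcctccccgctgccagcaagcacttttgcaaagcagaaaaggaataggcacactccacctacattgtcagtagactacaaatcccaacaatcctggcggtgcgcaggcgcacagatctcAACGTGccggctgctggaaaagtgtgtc
Tef, first window: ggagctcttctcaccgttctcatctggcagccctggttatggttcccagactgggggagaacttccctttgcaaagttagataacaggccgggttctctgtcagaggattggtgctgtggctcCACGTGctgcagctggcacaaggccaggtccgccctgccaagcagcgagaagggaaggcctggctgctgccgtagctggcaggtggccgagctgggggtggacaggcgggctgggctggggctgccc
Tef, second window: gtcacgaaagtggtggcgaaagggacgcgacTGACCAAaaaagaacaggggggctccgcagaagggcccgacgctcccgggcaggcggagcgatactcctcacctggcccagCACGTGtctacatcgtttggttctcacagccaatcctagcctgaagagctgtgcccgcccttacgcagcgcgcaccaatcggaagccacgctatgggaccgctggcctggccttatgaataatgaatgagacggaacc
Bhlhe41: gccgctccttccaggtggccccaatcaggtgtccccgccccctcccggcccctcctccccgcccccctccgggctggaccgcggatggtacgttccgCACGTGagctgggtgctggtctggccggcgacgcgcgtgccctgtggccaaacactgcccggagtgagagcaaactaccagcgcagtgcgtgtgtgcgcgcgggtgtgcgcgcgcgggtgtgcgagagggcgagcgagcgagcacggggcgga
Nfil3: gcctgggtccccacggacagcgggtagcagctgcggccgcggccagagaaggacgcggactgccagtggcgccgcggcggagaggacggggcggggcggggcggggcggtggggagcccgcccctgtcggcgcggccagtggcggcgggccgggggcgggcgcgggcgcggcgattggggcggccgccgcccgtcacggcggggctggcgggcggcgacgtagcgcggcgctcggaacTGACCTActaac

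These positions count from the RefSeq starts, which differ from the ends of the GENCODE genes whose coordinates are given below. By the GENCODE coordinates, the Tef stretches and the Nfil3 match lie inside their genes, and the Nr1d1 start lies outside its gene. The E-box began 127 bases upstream of the RefSeq start in the first Tef window, 138 bases upstream in the second and 153 bases upstream in Bhlhe41. Nr1d1 held the E-box variant on the antisense strand 28 bases upstream. Nfil3 held the ROR element core on the antisense strand 12 bases upstream, and the second Tef window held it 219 bases upstream. None of the 9 windows held the D-box letters. Among 32851 RefSeq promoter windows of the same length, 7.15% held the E-box, 4.68% the variant, 11% the ROR element core and 2.32% the D-box, so these are matches of letters that many promoters have.

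Total counts ran between 12450812 and 33976660 per library, and 3 counts correspond to between 0.0883 and 0.241 CPM, the counts scaled to a library's total. Levels below are CPM scaled by the trimmed mean of M values (TMM), tests are edgeR's quasi-likelihood test with Benjamini-Hochberg adjustment over all 17731 genes and a threshold of 0.05, and changes are log2 fold changes with their standard errors. Nothing in the labels says that the libraries of a group come from separate animals, so the p-values measure the spread between these libraries. Havcr1, the tubule injury marker KIM-1, lay at 184 to 403 CPM in FAN time-restricted and 203 to 586 CPM in FAN ad libitum kidneys, against 2.41 to 10.1 CPM in vehicle time-restricted and 2.55 to 7.38 CPM in vehicle ad libitum kidneys. The 16 column names also carry S numbers in 3 runs of consecutive numbers, which cut across the groups. The first run holds FAN time-restricted library 6, FAN ad libitum libraries 6 and 7, and vehicle libraries 1 and 2 of each feeding, the second the other vehicle libraries and the third the other FAN libraries. FAN libraries are named here by the number in their column, which sets their group but not which labelled sample they are. The FAN ad libitum libraries stood apart from all others in composition, with 6.94% to 14.8% of their counts from mitochondrial genes, against 17.2% to 26.7% in the other 12, and with TMM factors of 1.32 to 1.53, against 0.816 to 0.975.

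In FAN kidneys under both feedings the activators at D-box elements were low and the repressor at the same elements was high. Dbp, Tef and Hlf fell and Nfil3 rose against vehicle in each feeding. Nr1d1 fell under time-restricted feeding, Nr1d2 fell under ad libitum feeding, and Rora rose under time-restricted feeding. Bhlhe40 and Bhlhe41 rose with FAN under ad libitum feeding. Within FAN, time-restricted kidneys had more Hlf, Tef, Nr1d2 and Rora and less Nfil3 and Bhlhe40 than ad libitum kidneys by TMM-scaled CPM. For Tef, Nr1d2 and Rora that direction depended on the TMM scaling, as given below. Some calls of Nr1d1, Nr1d2, Hlf, Nfil3, Bhlhe40 and Bhlhe41 were lost in other settings, as given for each gene below. In vehicle kidneys none of the 9 passed the test between feedings.

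**Figure D1:**
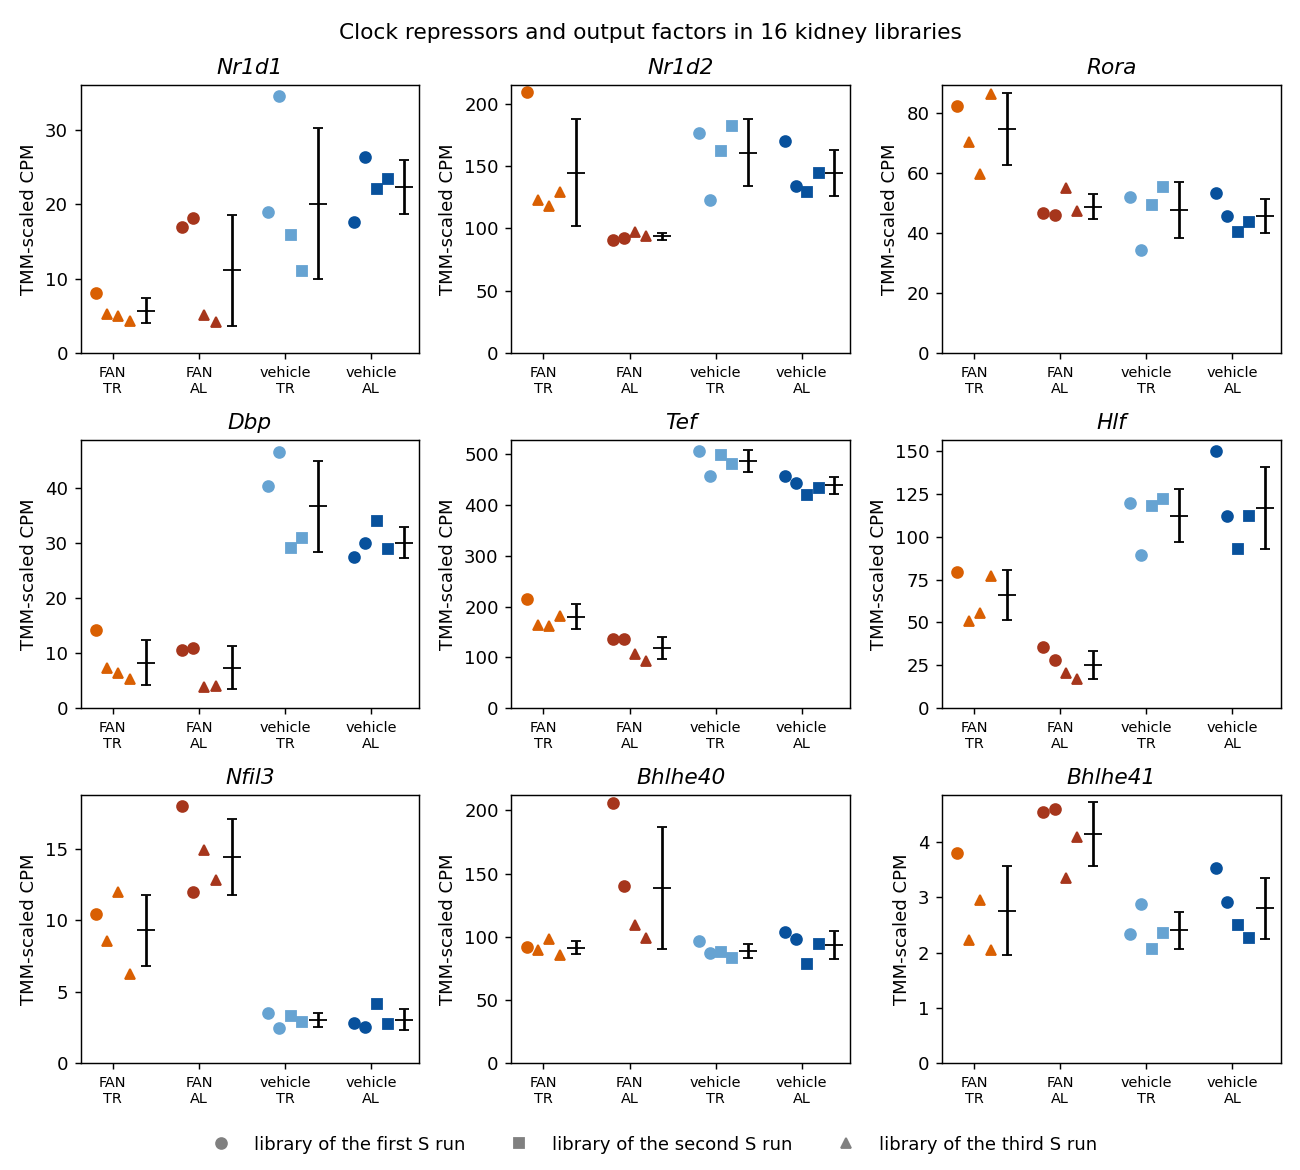
Level of each of the 9 genes in every library, as TMM-scaled CPM on an axis from 0, with points for the 16 libraries in the order FAN time-restricted (TR), FAN ad libitum (AL), vehicle TR and vehicle AL, symbols for the run of the S number, and bars for the group mean ± SD (n = 4). Tef lies between 93.7 and 215 CPM in the 8 FAN libraries and between 420 and 507 CPM in the 8 vehicle libraries, and Nfil3 shows the opposite order.

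Of the 9 members, 7 passed the test for FAN against vehicle under ad libitum feeding (3 higher and 4 lower), where 60.7% of all tested genes were called, 32.1% higher and 28.6% lower. Their median absolute log2 change was 1.0, beside 0.68 over all genes. Under time-restricted feeding 6 of 9 passed (2 higher and 4 lower), where 43.5% of all tested genes were called, 24.5% higher and 19% lower, and the medians were 0.77 and 0.47. For time-restricted against ad libitum feeding within FAN, 6 of 9 passed (4 higher and 2 lower), where 31.8% of all tested genes were called, 17.9% higher and 13.9% lower, and the medians were 0.61 and 0.4. Within vehicle 0 of 9 passed by edgeR, where 0% of all genes were called. No member was under an unadjusted p of 0.05 in that comparison, while 1143 genes (6.45%) were. The test of whether the FAN effect differed between feedings called 1 of 9 (Hlf, as a positive difference), where 9.16% of all tested genes were called, 7.76% positive and 1.4% negative. With so many genes called for FAN under either feeding, the members' counts there say little about them as a group.

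The libraries of FAN and vehicle did not overlap for 5 of 9 members under ad libitum feeding (54.9% of all genes) and for 6 of 9 under time-restricted feeding (40.3% of all genes). The feedings did not overlap for 6 of 9 members within FAN (28% of all genes) and for 1 of 9, Tef, within vehicle (4.85% of all genes). Some gaps were smaller than the printed digits of CPM. The nearest libraries of the feedings read 8.839 and 8.838 log2 CPM for Tef in vehicle, and 3.592 and 3.599 for Nfil3 in FAN.

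**Figure D2:**
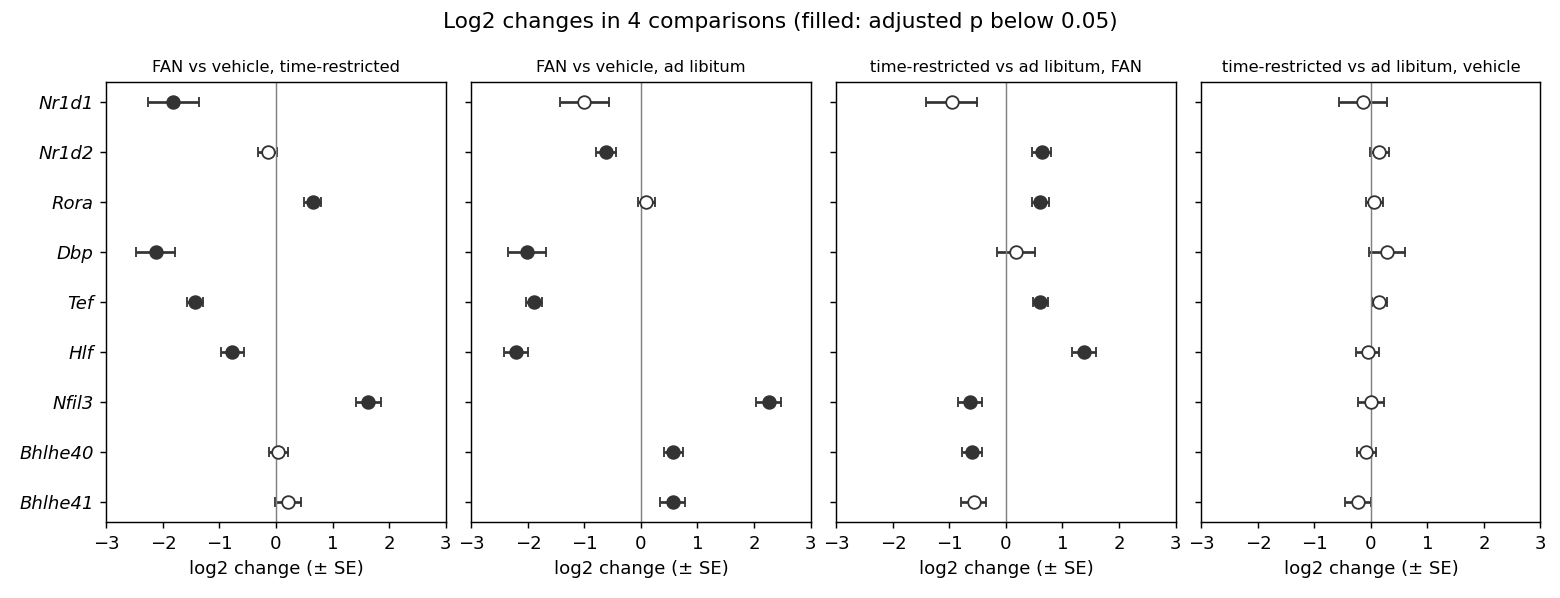
Log2 fold change of each of the 9 genes with its standard error for FAN against vehicle under each feeding, and for time-restricted against ad libitum kidneys within FAN and within vehicle; filled points passed the adjusted threshold of 0.05. Dbp and Tef lie below 0 and Nfil3 above 0 in both FAN comparisons, and the vehicle feeding comparison has no filled point.

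Nr1d1 (ENSMUSG00000020889, chr11:98767932-98775333, minus strand of GRCm38) encodes REV-ERB alpha. It read 8.13, 5.21, 4.99 and 4.37 CPM in FAN time-restricted libraries 6, 10, 11 and 12, and 16.9, 18.2, 5.16 and 4.18 CPM in FAN ad libitum libraries 6, 7, 10 and 12. Vehicle time-restricted libraries 1 to 4 read 19.0, 34.5, 15.9 and 11 CPM, and vehicle ad libitum libraries 1 to 4 read 17.6, 26.3, 22.0 and 23.4 CPM. All 4 FAN time-restricted libraries were below every vehicle library, whereas the FAN ad libitum group held 2 libraries near the vehicle level and 2 near the FAN time-restricted level. Under time-restricted feeding Nr1d1 fell with FAN by 1.82 ± 0.45 on the log2 scale (adjusted p = 0.00448). Under ad libitum feeding the change of -1.0 ± 0.43 missed the threshold (adjusted p = 0.0568). The 2 higher FAN ad libitum libraries are those whose S numbers belong to the first run: they averaged 17.5 CPM and the 2 later ones 4.67 CPM, a ratio of 3.75. With the S run as a covariate the time-restricted change was -0.95 (adjusted p = 0.0742) and the ad libitum change -0.79 (adjusted p = 0.048), and the ad libitum change passed on leaving out FAN ad libitum library 6 (adjusted p = 0.032) or 7 (adjusted p = 0.0217) or vehicle time-restricted library 2 (adjusted p = 0.0333) or 4 (adjusted p = 0.0472). In all, the ad libitum change passed in 10 of 26 alternatives, among them DESeq2 (adjusted p = 0.0494) and limma-trend (adjusted p = 0.0181), and stayed uncalled in 16. Nr1d1 overlaps Thra, a thyroid hormone receptor gene on the other strand, over 263 exonic bases. The strand setting of the counting is not given in the sources used here. Thra changed by -0.32 ± 0.22 under time-restricted (adjusted p = 0.255) and -0.18 ± 0.21 under ad libitum feeding (adjusted p = 0.474).

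Nr1d2 (ENSMUSG00000021775, chr14:18204054-18239127, minus strand) encodes REV-ERB beta and stood above Nr1d1 per kilobase of exon in every group. FAN time-restricted libraries read 209, 123, 118 and 129 CPM and FAN ad libitum libraries 91.0, 92.0, 97.4 and 94.2 CPM. The vehicle libraries read 176, 123, 162 and 182 CPM under time-restricted and 170, 134, 129 and 144 CPM under ad libitum feeding. The FAN ad libitum libraries were the 4 lowest of all 16 and close to each other, and FAN time-restricted libraries overlapped vehicle. With FAN, Nr1d2 fell by 0.62 ± 0.17 under ad libitum feeding (adjusted p = 0.00351), and changed by -0.15 ± 0.17 without passing under time-restricted feeding (adjusted p = 0.501). Within FAN it was higher under time-restricted than ad libitum feeding by 0.63 ± 0.17 (adjusted p = 0.00805). With the S run as a covariate the ad libitum FAN change was -0.45 and lost its call (adjusted p = 0.0656). FAN time-restricted library 6, at 209 CPM, stood apart. Without it the time-restricted FAN change was -0.38 (adjusted p = 0.0364) and the feeding difference 0.40 (adjusted p = 0.0367). The ratio of Nr1d1 to Nr1d2 CPM was 0.0338 to 0.0423 in FAN time-restricted and 0.0443 to 0.197 in FAN ad libitum kidneys, against 0.0605 to 0.281 in vehicle time-restricted and 0.104 to 0.196 in vehicle ad libitum kidneys.

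Rora (ENSMUSG00000032238, chr9:68653786-69388246, plus strand) encodes the activator at the elements the REV-ERB receptors occupy. It read 82.3, 70.2, 59.7 and 86.1 CPM in FAN time-restricted and 46.6, 46.0, 54.8 and 47.4 CPM in FAN ad libitum libraries. Vehicle libraries read 52.1, 34.3, 49.2 and 55.2 CPM under time-restricted and 53.3, 45.7, 40.2 and 43.5 CPM under ad libitum feeding. FAN time-restricted kidneys alone stood above the other 12 libraries. Rora rose with FAN under time-restricted feeding by 0.65 ± 0.15 (adjusted p = 0.00186), while under ad libitum feeding it changed by 0.09 ± 0.15 (adjusted p = 0.61). It was 0.61 ± 0.15 higher in time-restricted than ad libitum FAN kidneys (adjusted p = 0.00424), and the difference of the FAN effects was 0.55 (adjusted p = 0.109). The log2 ratio of Nr1d1 to Rora CPM averaged -3.74 in FAN time-restricted and -2.43 in FAN ad libitum kidneys, against -1.35 in vehicle time-restricted and -1.04 in vehicle ad libitum kidneys.

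Dbp (ENSMUSG00000059824, chr7:45705088-45710203, plus strand), a D-box activator, read 14.3, 7.26, 6.33 and 5.30 CPM in FAN time-restricted and 10.6, 10.9, 3.90 and 4.05 CPM in FAN ad libitum libraries. Vehicle libraries read 40.4, 46.7, 29.1 and 30.9 CPM under time-restricted and 27.5, 30.1, 34 and 29 CPM under ad libitum feeding. Every FAN library was below every vehicle library. Dbp averaged 8.3 ± 4.09 CPM in FAN and 36.8 ± 8.28 CPM in vehicle kidneys under time-restricted feeding, and 7.34 ± 3.89 CPM in FAN and 30.2 ± 2.81 CPM in vehicle kidneys under ad libitum feeding (SD, n = 4 each). It fell by 2.13 ± 0.35 under time-restricted (adjusted p = 0.000117) and fell by 2.02 ± 0.34 under ad libitum feeding (adjusted p = 7.17e-05). The feedings differed by 0.18 ± 0.34 within FAN (adjusted p = 0.715). As for Nr1d1, the first-run libraries read higher than the later ones in FAN kidneys, 2.27 times in time-restricted and 2.69 times in ad libitum kidneys, and with the S run as a covariate the time-restricted FAN change was -1.34 (adjusted p = 0.00014) and the feeding difference within FAN was 0.57 (adjusted p = 0.0115). Dbp shares 539 exonic bases with Sphk2 on the other strand. Sphk2, a sphingosine kinase, changed by -0.19 ± 0.18 under time-restricted (adjusted p = 0.413) and -0.18 ± 0.17 under ad libitum feeding (adjusted p = 0.404).

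Tef (ENSMUSG00000022389, chr15:81802421-81826863, plus strand), the most abundant PAR bZIP factor per kilobase in all 4 groups, read 215, 164, 162 and 181 CPM in FAN time-restricted and 136, 136, 106 and 93.7 CPM in FAN ad libitum libraries. In vehicle libraries it read 507, 458, 499 and 481 CPM under time-restricted and 458, 444, 420 and 433 CPM under ad libitum feeding. The 4 groups kept an order in which FAN ad libitum was lowest, FAN time-restricted next and both vehicle groups far above. With FAN, Tef fell by 1.43 ± 0.14 under time-restricted (adjusted p = 2.47e-07) and fell by 1.89 ± 0.14 under ad libitum feeding (adjusted p = 2.6e-09). Within FAN it was 0.61 ± 0.13 higher under time-restricted feeding (adjusted p = 0.00217), and the FAN effects differed by 0.46 between feedings, which missed the threshold (adjusted p = 0.14) and passed with the S run as a covariate (0.57, adjusted p = 0.0178).

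Hlf (ENSMUSG00000003949, chr11:90336536-90390895, minus strand) read 79.7, 51.1, 55.5 and 77.1 CPM in FAN time-restricted and 35.7, 27.8, 20.5 and 16.9 CPM in FAN ad libitum libraries. Vehicle libraries read 120, 89.2, 118 and 122 CPM under time-restricted and 150, 112, 92.7 and 112 CPM under ad libitum feeding. The lowest FAN time-restricted library lay above the highest FAN ad libitum library, and all 8 lay below the vehicle libraries. Hlf fell with FAN by 0.77 ± 0.21 under time-restricted (adjusted p = 0.00702) and fell by 2.21 ± 0.22 under ad libitum feeding (adjusted p = 1.33e-07). The difference between those effects was 1.44 ± 0.30 (adjusted p = 0.00512), and Hlf was 1.38 ± 0.22 higher in time-restricted than ad libitum FAN kidneys (adjusted p = 0.000124). The time-restricted fall lost its call with the S run as a covariate (-0.37, adjusted p = 0.276) and in the first run alone, where FAN time-restricted feeding has 1 library (-0.45, adjusted p = 0.262).

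Nfil3 (ENSMUSG00000056749, chr13:52967209-52981073, minus strand), the D-box repressor, also induced by cytokines in immune cells, read 10.4, 8.57, 12 and 6.23 CPM in FAN time-restricted and 18, 12, 14.9 and 12.8 CPM in FAN ad libitum libraries. The vehicle libraries read 3.51, 2.45, 3.28 and 2.85 CPM under time-restricted and 2.79, 2.49, 4.12 and 2.71 CPM under ad libitum feeding. All FAN libraries were above all vehicle libraries. With FAN, Nfil3 rose by 1.63 ± 0.22 under time-restricted (adjusted p = 1.35e-05) and by 2.26 ± 0.22 under ad libitum feeding (adjusted p = 9.42e-08). It was lower in time-restricted than ad libitum FAN kidneys by 0.63 ± 0.21 on the log2 scale (log2 change -0.63, adjusted p = 0.0278). The feeding call ended on leaving out FAN ad libitum library 6 (adjusted p = 0.107) or FAN time-restricted library 10 (adjusted p = 0.0752) or 12 (adjusted p = 0.0912), and also with the S run as a covariate (adjusted p = 0.0519).

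The ratio of Dbp to Nfil3 CPM set activator against repressor within a library. It was 1.38, 0.847, 0.528 and 0.851 in FAN time-restricted and 0.587, 0.901, 0.262 and 0.316 in FAN ad libitum libraries. In vehicle libraries it was 11.5, 19.1, 8.85 and 10.8 under time-restricted and 9.84, 12.1, 8.26 and 10.7 under ad libitum feeding. The ratio was lower in every FAN library than in every vehicle library. CPM do not account for the lengths of these genes, so the ratio serves to compare libraries, not the 2 genes, and it describes values already tested.

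**Figure D3:**
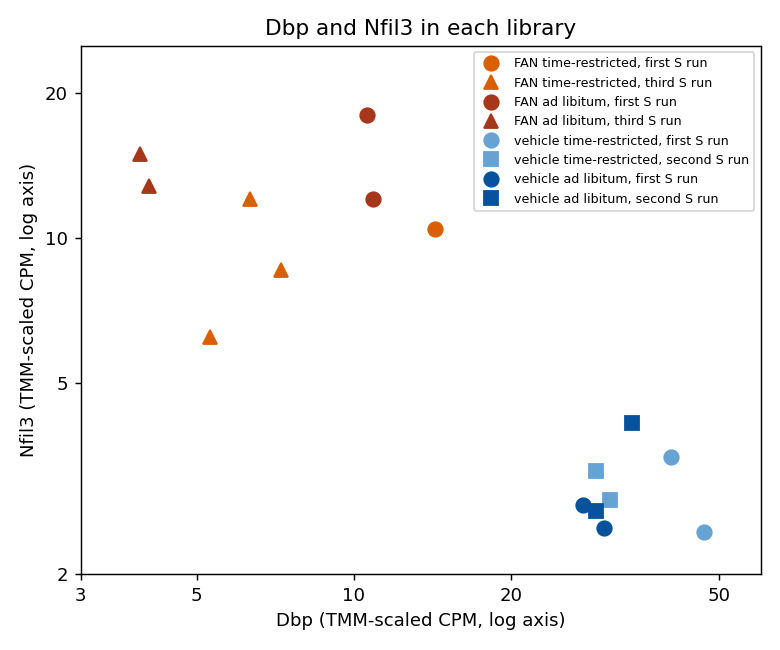
Dbp against Nfil3 in the 16 libraries, both as TMM-scaled CPM on log axes, coloured by group and with symbols for the run of the S number. The 8 FAN libraries, with 3.90 to 14.3 CPM of Dbp and 6.23 to 18.0 CPM of Nfil3, and the 8 vehicle libraries, with 27.5 to 46.7 CPM of Dbp and 2.45 to 4.12 CPM of Nfil3, do not overlap on either axis.

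Bhlhe40 (ENSMUSG00000030103, chr6:108660629-108666925, plus strand), which encodes DEC1, read 91.7, 89.1, 98.2 and 85.8 CPM in FAN time-restricted and 206, 140, 109 and 99.2 CPM in FAN ad libitum libraries. Vehicle libraries read 96.9, 87.4, 87.5 and 83.3 CPM under time-restricted and 104, 98, 78.1 and 94.4 CPM under ad libitum feeding. FAN ad libitum was the group with the higher values and the wider spread, and its lowest library overlapped vehicle. Bhlhe40 rose with FAN by 0.57 ± 0.17 under ad libitum feeding (adjusted p = 0.00805) and changed by 0.04 ± 0.17 under time-restricted feeding (adjusted p = 0.873). Time-restricted FAN kidneys were lower than ad libitum ones (log2 change -0.60 ± 0.17, adjusted p = 0.0121). Library 6 of FAN ad libitum feeding stood highest, and without it the FAN change was 0.31 (adjusted p = 0.0452) and the feeding change -0.35 (adjusted p = 0.0546). With only the ad libitum groups in the fit the FAN change was 0.52 (adjusted p = 0.0512).

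Bhlhe41 (ENSMUSG00000030256, chr6:145858243-145865558, minus strand), which encodes DEC2, was the lowest member per kilobase of exon. It averaged 2.76 ± 0.803 CPM in FAN time-restricted and 4.15 ± 0.576 CPM in FAN ad libitum kidneys, against 2.41 ± 0.335 CPM in vehicle time-restricted and 2.8 ± 0.553 CPM in vehicle ad libitum kidneys (SD, n = 4 each). The groups overlapped in both FAN comparisons. Under ad libitum feeding it rose with FAN by 0.56 ± 0.22 (adjusted p = 0.0327), a call lost on leaving out any of 7 single libraries (adjusted p of 0.0512 to 0.096): FAN ad libitum 6, 7 or 12, FAN time-restricted 11, or vehicle ad libitum 2, 3 or 4. In the first S run alone the change was 0.47 and not called (adjusted p = 0.139). It changed by 0.21 ± 0.23 under time-restricted feeding (adjusted p = 0.48), and the feeding difference within FAN was -0.57 ± 0.22 (adjusted p = 0.0532). A predicted gene on the other strand, Gm43909, overlaps 1280 exonic bases of Bhlhe41.

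In vehicle kidneys the members' changes between time-restricted and ad libitum feeding ran from -0.22 (Bhlhe41) to 0.29 (Dbp), with standard errors up to 0.43 and a lowest adjusted p of 0.947. Tef was the member whose groups did not overlap, by a gap smaller than the printed digits, at 458 to 507 CPM under time-restricted and 420 to 458 CPM under ad libitum feeding, a change of 0.15 ± 0.13. Over all genes edgeR called 0, DESeq2 57 and limma-trend 1, none of them a member.

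Divided by exon length, the members kept the same order in both vehicle groups: Tef, Nr1d2, Bhlhe40, Hlf, Dbp, Nr1d1, Rora, Nfil3 and Bhlhe41, from high to low by their means. Over libraries Bhlhe40 and Hlf overlapped in both vehicle groups, and under time-restricted feeding Hlf also overlapped Dbp, Dbp overlapped Nr1d1 and Nr1d1 overlapped Rora. In FAN time-restricted kidneys the order began with Nr1d2 at 26.8 CPM per kilobase, Tef at 22.9 and Bhlhe40 at 19.4, and neighbours in this trio overlapped over libraries. In FAN ad libitum kidneys Bhlhe40 came first at 29.3 CPM per kilobase, above Nr1d2 at 17.3 with no overlap, and Tef followed at 15. Nfil3 stood at 4.59 CPM per kilobase in FAN time-restricted kidneys, between Rora and Dbp, and at 7.11 in FAN ad libitum kidneys, between Tef and Hlf, against 1.49 in vehicle time-restricted and 1.5 in vehicle ad libitum kidneys, where the Bhlhe41 level alone was lower. Tef, first in vehicle at 61.8 CPM per kilobase under time-restricted and 55.8 under ad libitum feeding, overlapped its neighbour Nr1d2 in both FAN groups and in neither vehicle group. Among neighbours lower down, Rora, Nfil3, Dbp and Nr1d1 overlapped in sequence in FAN time-restricted kidneys, as did Hlf, Rora, Nr1d1 and Dbp in FAN ad libitum kidneys.

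**Figure D4:**
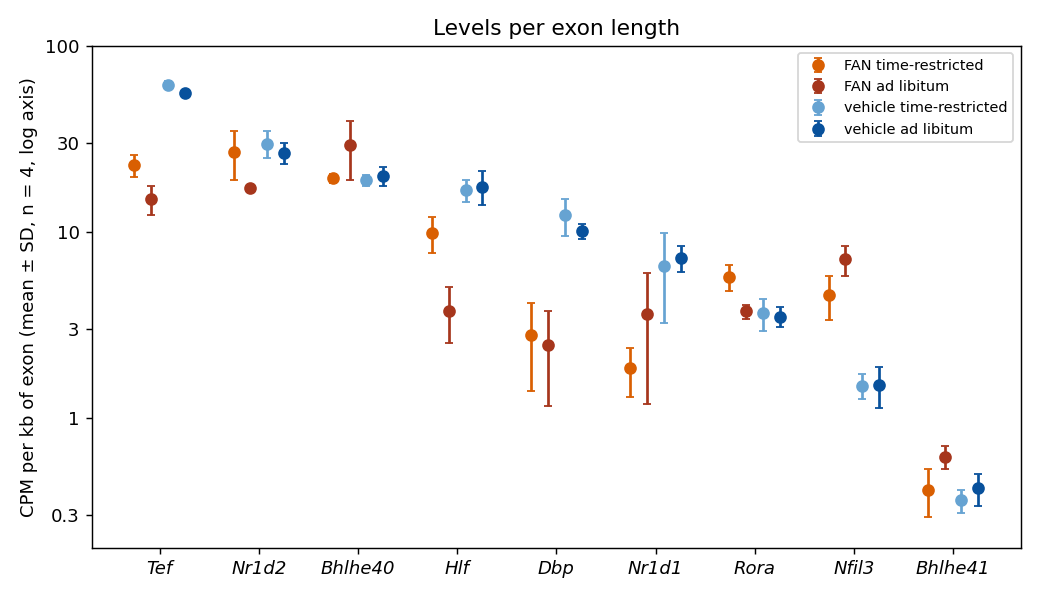
Mean level of the 9 genes in each group as CPM per kilobase of exon on a log axis, with bars for the SD (n = 4). Nfil3 stands at 4.59 in FAN time-restricted and 7.11 in FAN ad libitum kidneys, against 1.49 in vehicle time-restricted and 1.5 in vehicle ad libitum kidneys.

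The genes around these factors were counted in lists written from known function, with earlier results of these data known. Of 19 core clock genes outside the 9, 9 rose and 6 fell with FAN under time-restricted feeding, and 8 rose and 8 fell under ad libitum feeding, beside 43.5% and 60.7% of all genes called. Arntl, the target of both receptor families, rose by 1.83 ± 0.33 under time-restricted (adjusted p = 0.000235) and 2.31 ± 0.32 under ad libitum feeding (adjusted p = 6.64e-06). Npas2, a relative of Clock, rose by 1.69 ± 0.27 (adjusted p = 8.05e-05) under time-restricted and 2.34 ± 0.27 (adjusted p = 6.45e-07) under ad libitum feeding. The E-box targets moved the other way in part: Ciart, a repressor of CLOCK and BMAL1, fell by 3.31 ± 0.38 under time-restricted (adjusted p = 4.28e-06) and fell by 3.37 ± 0.38 under ad libitum feeding (adjusted p = 9.58e-07), and Per2 fell by 0.47 ± 0.16 under time-restricted (adjusted p = 0.0258) and fell by 1.02 ± 0.16 under ad libitum feeding (adjusted p = 3.31e-05). Of 12 E-box output genes, 8 of which are also in the core clock list, 2 rose and 6 fell in each feeding, with medians of -0.42 under time-restricted and -0.36 under ad libitum feeding, beside 0.05 and 0.06 over all genes.

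Of 8 tested genes with described REV-ERB and ROR elements, 4 of which are in the core clock list, 6 rose and 1 fell with FAN under time-restricted feeding and 5 rose and 2 fell under ad libitum feeding, with medians of 0.82 and 0.58. Lpl, which encodes lipoprotein lipase, fell by 1.08 ± 0.33 under time-restricted (adjusted p = 0.0132) and fell by 2.75 ± 0.35 under ad libitum feeding (adjusted p = 2.43e-06). Among 10 coregulators of these receptors, 3 rose and 2 fell under time-restricted and 2 rose and 3 fell under ad libitum feeding. Of all genes, 43.5% were called with FAN under time-restricted and 60.7% under ad libitum feeding.

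Of 10 tested detoxification and related genes listed around the PAR bZIP factors, 5 fell and 0 rose with FAN under time-restricted feeding, and 6 fell and 2 rose under ad libitum feeding, with medians of -0.58 and -1.1. Within FAN, 5 of the 10 were higher and 1 lower under time-restricted than ad libitum feeding, where 31.8% of all genes were called. Ces2c, a carboxylesterase gene, fell by 1.02 ± 0.20 under time-restricted (adjusted p = 0.000566) and fell by 2.65 ± 0.21 under ad libitum feeding (adjusted p = 9.04e-09), and the effects differed by 1.63 ± 0.29 (adjusted p = 0.00127). Por, the electron donor of microsomal cytochrome P450 enzymes, fell by 0.66 ± 0.19 (adjusted p = 0.00903) under time-restricted and fell by 1.43 ± 0.19 (adjusted p = 4.35e-06) under ad libitum feeding. Of 14 tested genes of renal clock output, 3 rose and 3 fell under time-restricted and 2 rose and 7 fell under ad libitum feeding. Edn1, with the smallest p of this list in both feedings, rose by 3.39 ± 0.40 under time-restricted feeding (adjusted p = 4.28e-06). Under ad libitum feeding Edn1 rose by 4.02 ± 0.40 (adjusted p = 1.74e-07). Slc9a3, the proximal sodium-hydrogen exchanger, fell by 1.16 ± 0.22 under time-restricted (adjusted p = 0.000352) and fell by 1.64 ± 0.22 under ad libitum feeding (adjusted p = 4.37e-06). Of 10 hypoxia-induced genes, listed because Bhlhe40 and Bhlhe41 are known to respond to low oxygen, 2 rose and 2 fell under time-restricted and 2 rose and 4 fell under ad libitum feeding. With FAN, 43.5% of all genes were called under time-restricted and 60.7% under ad libitum feeding, so counts near those shares say little about a list. No gene of these lists passed the test between feedings in vehicle kidneys.

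Cell type markers moved in the same comparisons, and in whole kidney fewer cells of a type and less RNA per cell cannot be told apart. Beside the marker counts here and below, FAN called 43.5% of all genes under time-restricted and 60.7% under ad libitum feeding. Feeding within FAN called 31.8%. Of 12 proximal tubule markers, 10 fell with FAN in each feeding and 10 were higher in time-restricted than ad libitum FAN kidneys. Their summed level was 9330 to 11200 CPM in FAN time-restricted and 2450 to 4820 CPM in FAN ad libitum kidneys, against 17900 to 21300 CPM in vehicle time-restricted and 17400 to 20200 CPM in vehicle ad libitum kidneys. With FAN ad libitum lowest, FAN time-restricted next and both vehicle groups above, that is the order seen for Tef and Hlf by TMM-scaled CPM. Dbp had it by group means, with its FAN libraries overlapping between feedings. Of 12 macrophage and dendritic cell markers, 11 rose with FAN under time-restricted and 12 under ad libitum feeding, and 11 were lower in time-restricted than ad libitum FAN kidneys. They summed to 1300 to 2390 CPM in FAN time-restricted and 3120 to 3550 CPM in FAN ad libitum kidneys, against 205.1 to 304.2 CPM in vehicle time-restricted and 224 to 459 CPM in vehicle ad libitum kidneys. By group means this is the order seen for Nfil3, and the fibroblast and lymphoid marker sums below had it too. In the lymphoid sum the step between the FAN groups lay mostly in Thy1.

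Fibroblast and pericyte markers rose in 7 of 10 under time-restricted and 8 of 10 under ad libitum feeding, and summed to 601 to 1020 CPM in FAN time-restricted and 1000 to 1700 CPM in FAN ad libitum kidneys, against 182 to 284 CPM in vehicle time-restricted and 182 to 354 CPM in vehicle ad libitum kidneys. Lymphoid markers rose in 10 of 11 in each feeding and summed to 50.2 to 73.6 CPM in FAN time-restricted and 76.6 to 98.9 CPM in FAN ad libitum kidneys, against 14.3 to 22.9 CPM in vehicle time-restricted and 17.9 to 26 CPM in vehicle ad libitum kidneys. Between feedings within FAN, 1 of these 11 lymphoid markers, Thy1, was lower under time-restricted feeding and 10 did not pass. Thy1 averaged 13.2 CPM in FAN time-restricted and 34.9 CPM in FAN ad libitum kidneys. The lymphoid sums averaged 62.8 and 86 CPM there. Cd3e and Klrb1c were at 0 in 1 vehicle time-restricted library each. Of 10 endothelial markers 5 rose under time-restricted and 3 under ad libitum feeding, with sums of 335 to 557 CPM in FAN time-restricted and 413 to 483 CPM in FAN ad libitum kidneys, against 235 to 338 CPM in vehicle time-restricted and 313 to 478 CPM in vehicle ad libitum kidneys. Of 10 distal nephron markers 3 fell under time-restricted and 5 under ad libitum feeding, and they summed to 1470 to 2530 CPM in FAN time-restricted and 1520 to 2990 CPM in FAN ad libitum kidneys, against 2370 to 2740 CPM in vehicle time-restricted and 2320 to 2800 CPM in vehicle ad libitum kidneys. The part of cell composition in the members' changes was not tested.

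Each member's nearest gene was found among 10943 genes by Pearson's r of log2 CPM over the 16 libraries, which are divided into the same FAN and vehicle groups for every gene, so that these values are a description. Ciart was most like Dbp (0.972), Sfxn5 most like Tef (0.991), Slc25a13 most like Hlf (0.989) and Arl4c most like Nfil3 (0.98), with Nfkbiz next for Nfil3 (0.977). The closest genes were less alike for Nr1d1 (Rab11b, 0.959), Nr1d2 (Nat2, 0.948), Rora (Itgb8, 0.946), Bhlhe40 (Ipo9, 0.908) and Bhlhe41 (Ccdc9b, 0.846).

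The S numbers ran along with several members inside the groups. In FAN time-restricted kidneys 6 members were higher and 0 lower in the first-run library than in every later one, where 26.6% and 24.5% of all genes were. In FAN ad libitum kidneys 6 were higher and 2 lower, where 32.7% and 30.3% of all genes were. In vehicle kidneys 2 were higher and 0 lower under time-restricted feeding (17.2% and 12.4% of all genes), and 5 were higher and 0 lower under ad libitum feeding (19.8% and 14% of all genes). The first-run to later ratio in vehicle time-restricted kidneys was 1.99 for Nr1d1 and 1.45 for Dbp. Beyond Nr1d1 and Dbp, the ratio of first-run to later means in FAN ad libitum kidneys was 1.7 for Hlf, 1.66 for Bhlhe40, 1.36 for Tef and 1.23 for Bhlhe41. The second run holds vehicle and the third FAN libraries alone, so FAN and vehicle can be set against each other within the first run only, where FAN time-restricted feeding has 1 library that is assumed to vary like the others. There, under time-restricted feeding, the FAN changes were -1.66 for Dbp (adjusted p = 0.00083), -1.23 for Tef (adjusted p = 0.00263), -1.78 for Nr1d1 (adjusted p = 0.0232), 1.75 for Nfil3 (adjusted p = 0.00769) and 0.87 for Rora (adjusted p = 0.0323). Within the first run the FAN changes under ad libitum feeding were -1.46 for Dbp, -1.76 for Tef, -2.09 for Hlf, 2.47 for Nfil3 and -0.77 for Nr1d2, and the Nr1d1 change was -0.36 (adjusted p = 0.367). The feeding changes within FAN were 1.3 for Hlf (adjusted p = 0.0131), 0.63 for Tef (adjusted p = 0.0222), 1.16 for Nr1d2 (adjusted p = 0.0121), 0.8 for Rora (adjusted p = 0.0446), -0.94 for Bhlhe40 (adjusted p = 0.0269) and -0.56 for Nfil3 (adjusted p = 0.244). What the S numbers stand for is not given in the sources used here, and their part in the members' changes was not tested.

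The scaling also decided whether 3 feeding differences within FAN were seen. Scaled by library size alone, the median of all genes was -0.67 for feeding within FAN, beside -0.02 with TMM, and 0.76 for FAN under ad libitum feeding, beside 0.06 with TMM. On that scale the feeding change within FAN was -0.02 for Nr1d2 (adjusted p = 0.929), -0.04 for Tef (adjusted p = 0.792) and -0.03 for Rora (adjusted p = 0.833). These lie 0.65, 0.62 and 0.63 above the median for feeding within FAN. Dbp, called on neither scale, changed by -0.48 (adjusted p = 0.236), beside 0.18 with TMM, and lies 0.18 above that median. The FAN change of Nr1d2 under ad libitum feeding was 0.08 (adjusted p = 0.675), which lies at -0.68 relative to its median. The share of called genes that were higher moved to 8.61% for feeding within FAN, beside 56.4% with TMM, and to 83.9% for FAN under ad libitum feeding, beside 52.8%.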

How the data were processed

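The deposited table holds raw read counts per gene for 16 mouse kidney libraries, from TRIzol-extracted RNA and the TruSeq Stranded mRNA kit per the labels. The submitters' processing notes name FastQC 0.11.5, STAR 2.5.3a, edgeR 3.26.7 and mm10, without roles; the counting program and strand setting are not given in the sources used here. Vehicle columns match sample titles, and FAN columns gave the group only.

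Counts were tested in R 4.3.3 with edgeR 4.0.16 (filterByExpr with a minimum count of 10, TMM, robust quasi-likelihood fit of all 4 groups together, two-sided, Benjamini-Hochberg over 17731 genes). The fit was tested on simulated data. Libraries of a group all differed by more than sampling noise, so none were merged. Exon lengths and coordinates come from GENCODE M21 (GRCm38) by Ensembl ID. Alternatives used library-size scaling, DESeq2 1.42.0, limma 3.58.1, other filters, the S number, a replicate block and single libraries left out; those with the first S run alone or set against later S numbers were chosen after seeing the data. All 9 members are named in every comparison, other genes come from 7 lists and 6 marker lists, and the likeness ranking used genes with a mean of at least 5 CPM. The members and lists were chosen with earlier results of these data known.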

Additional observations from a re-analysis of the deposited data

Results flagged for a closer look

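Dixon's criterion for 4 samples marked 3 of 36 groups of member values, where chance marks about 1 in 20. Nr1d2 read 209 CPM in FAN time-restricted library 6, above the other libraries of its group. Rora read 54.8 CPM in FAN ad libitum library 10, above the rest of its group. Hlf read 89.2 CPM in vehicle time-restricted library 2, below the rest of its group.

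The FAN effect on Hlf differed between time-restricted and ad libitum feeding by 1.44 ± 0.30 on the log2 scale (edgeR's quasi-likelihood interaction test, adjusted p = 0.00512).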

How the results depend on the processing

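Of 1188 recalculated member changes, 1132 stayed on their side of the threshold, 25 lost their call, 27 gained a call and 4 that were called in either setting changed sign; 28 of the 1132, called in neither setting, also changed sign. The falls of Dbp and Tef and the rise of Nfil3 with FAN kept their calls under all 26 alternatives in both feedings, and the Hlf difference between feedings under all 25. Library-size scaling took 4 called changes to uncalled values just past 0. They were Nr1d2 for FAN under ad libitum feeding (0.08) and Nr1d2 (-0.02), Tef (-0.04) and Rora (-0.03) for feeding within FAN. Scaling by library size also called 4 members and 6631 genes for the difference of FAN effects (1 and 1625 with TMM). For feeding within FAN it called 11502 genes (5639 with TMM). Fixing the scale on library size moves all genes together. The S run as a covariate called 2 members for the difference of FAN effects and 4974 genes for FAN under time-restricted feeding (7719 without it), and the first run alone called 2 members for the difference; the cause was not tested. For feeding in vehicle, where edgeR called 0 genes, 6 were called with no filter, 57 by DESeq2, 1 by limma-trend, 1 with only the vehicle groups and 1 with the S run as a covariate.

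Leaving out each library in turn, FAN against vehicle called 6 to 7 members and 6693 to 7989 genes under time-restricted feeding and 6 to 8 members and 10176 to 10979 genes under ad libitum feeding. Feeding called 4 to 7 members and 4196 to 6314 genes within FAN, and 0 to 0 members and 0 to 4 genes within vehicle. The difference of FAN effects called 1 to 1 member and 1160 to 2371 genes. Bhlhe41 within FAN was called without FAN ad libitum library 10 or FAN time-restricted library 6 and in 5 other settings, and Nr1d1 within FAN without FAN ad libitum library 12 (-1.23, adjusted p = 0.0294).

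Vehicle replicate numbers 1 to 4 in the titles did not pair the libraries (correlations of deviations 0.18, 0.12, -0.15 and -0.01), and a fit with the replicate block called 0 members and 0 genes between feedings. The FAN columns do not carry the title numbers, but their own numbers 6, 10 and 12 occur in both feedings; these did not pair the libraries (-0.13, -0.17 and -0.17). In a fit of these 6 libraries alone, chosen after seeing the data, feeding within FAN called 2 members and 2288 genes with the replicate block and 5 members and 3014 genes without it. Standard errors were up to 0.62 on the log2 scale, for the Nr1d1 difference of FAN effects.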
